A study of Mus musculus with 8 samples.

Results

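Genes that mark thalamic neurons were followed mouse by mouse in RNA of dissected striatum. The 9 genes were Tcf7l2, Lef1, Gbx2, Rora, Slc17a6, Prkcd, Calb2, Synpo2 and Tnnt1, taken by gene symbol from a table of 55032 genes. They were chosen on values of these same 8 mice, after the levels of thalamic genes had been seen to differ from mouse to mouse. Their levels and genotype differences are therefore given as a description, with no test. The study compared 4 WT mice (WT-1015, WT-1041, WT-1061 and WT-1063) with 4 16p11.2+/- mice (DF-1018, DF-1037, DF-1059 and DF-1062). The authors describe all 8 as C57BL/6 females at postnatal day 60. The 16p11.2+/- mice belong to a line imported from the Jackson Laboratory and kept, as the authors state, on a C57BL/6 background. They carry the deletion on a single copy of the chromosome in every cell, so the group is no model of a loss limited to striatum or to thalamus. Each library was made from the total RNA of the striatum of 1 mouse, with no selection of a cell type.

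The thalamus lies close to the striatum and relays sensory and motor signals to the cortex and the striatum. Its relay neurons are glutamatergic and load their vesicles with the transporter encoded by Slc17a6, whereas most neurons of the striatum are GABAergic medium spiny neurons. Thalamic neurons keep the transcription factor Tcf7l2, an effector of Wnt signalling, into adult life, together with its relative Lef1. Axons of thalamic neurons reach the striatum, but their nuclei and most of their mRNA stay in the thalamus.

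Sequencing depth did not set the genotypes apart. The counts on genes summed to between 15125051 and 16387993 per WT mouse and to between 15240680 and 16523429 per 16p11.2+/- mouse. Taok2, a gene of the deleted segment, had an FPKM (counts scaled to gene length and library size) of 17.0 to 18.8 in WT and 8.91 to 9.82 in 16p11.2+/- mice, so its ranges did not overlap. Medium spiny neuron genes, the defining markers of striatum, were present in every library, but not evenly. The summed FPKM of 9 such genes was 1358 in WT-1015, 1006 in WT-1041, 1545 in WT-1061, 919 in WT-1063, 1443 in DF-1018, 353 in DF-1037, 1341 in DF-1059 and 282 in DF-1062. DF-1037 and DF-1062 thus stood apart from the other 6 libraries by low striatal markers. WT-1063 stood apart by choroid plexus genes, with a summed FPKM of 5204 against 58.8 to 616 in the other 7 mice. DF-1062 also stood apart by hypothalamic genes, with a summed FPKM of 210.2 against 2.74 to 12.2 elsewhere. The genotype differences that rest on these libraries are given with and without them. In RNA of whole tissue, fewer cells of a type and less RNA per cell cannot be told apart.

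The 9 genes differed between mice far more than most genes. Between the lowest and the highest mouse the FPKM changed 103-fold for Gbx2, 35.3-fold for Slc17a6, 28.4-fold for Calb2, 27.4-fold for Tnnt1, 21.7-fold for Prkcd, 17.6-fold for Tcf7l2, 8.70-fold for Lef1, 6.34-fold for Synpo2 and 5.0-fold for Rora. Across the 18294 genes with enough counts to be tested, 8.13% had a change at least as large as that of Rora and 1.92% one at least as large as that of Tcf7l2. By this measure Gbx2 and Slc17a6 separated the mice most sharply, with a lowest mouse at 0.971% and 2.83% of the highest. The lowest mouse of Gbx2, WT-1015, had only 2 counts (exact Poisson 95% interval 0.242 to 7.22), so the place of Gbx2 is uncertain. Rora and Synpo2 kept the highest share of their top level in every library, at 20.0% and 15.8%, followed by Lef1 at 11.5%. In the median tested gene the lowest mouse had 58.3% of the highest. The lowest FPKM of a gene over the 8 mice lay between 0.0607 for Gbx2 and 5.23 for Rora, and no gene was listed at 0 in any mouse.

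**Figure D1:**
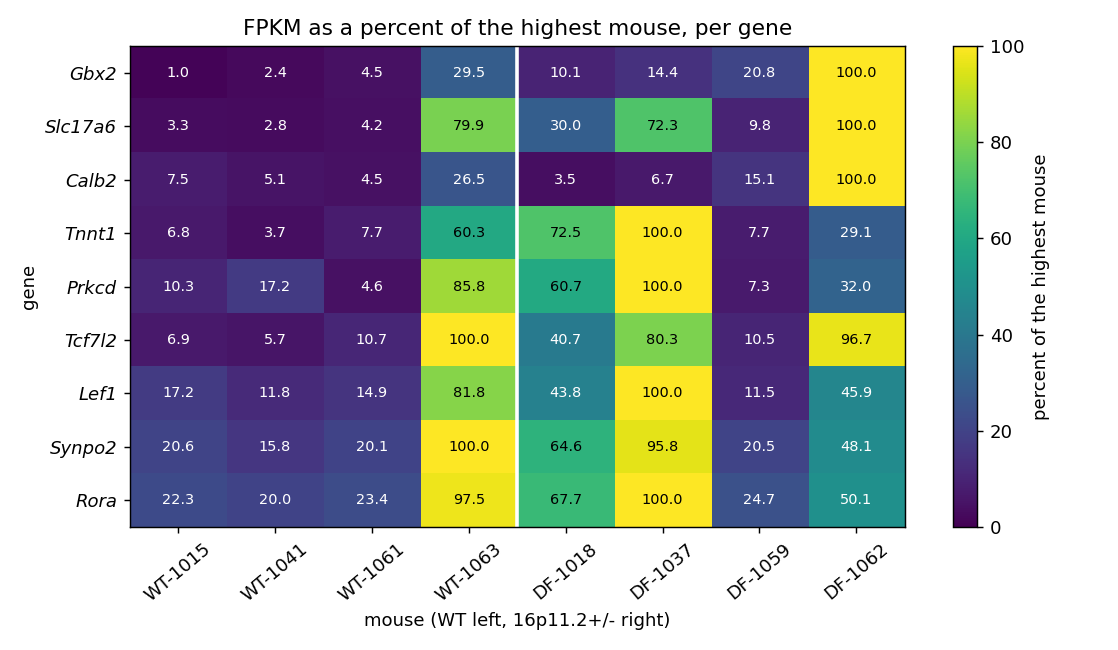
FPKM of each gene in each mouse as a percent of the gene's highest mouse, with the 4 WT mice on the left and the 4 16p11.2+/- mice on the right of the white line. Genes run from the smallest percent in the lowest mouse at the top (Gbx2, 0.971%, from 2 counts in WT-1015) to the largest at the bottom (Rora, 20.0%). WT-1063, DF-1018, DF-1037 and DF-1062 hold most of the bright cells.

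The same mice were highest for most of the genes, and they were not those of a single genotype. WT-1063 and DF-1062 were among the 4 highest mice for 9 of the 9 genes, DF-1037 for 8 and DF-1018 for 7. The remaining places were taken by DF-1059 for Gbx2 and Calb2 and by WT-1015 for Calb2. WT-1041 and WT-1061 were never among the 4 highest, and WT-1041 was the lowest mouse for 5 genes. When the 8 values of log2(FPKM + 0.1) were put in order, the largest gap between neighbours left WT-1063, DF-1018, DF-1037 and DF-1062 above it for 6 of the 9 genes, namely Tcf7l2, Lef1, Rora, Slc17a6, Synpo2 and Tnnt1. Of all tested genes 0.858% were split in this way. The gap was 1.87 on the log2 scale for Tcf7l2, 1.78 for Tnnt1, 1.60 for Slc17a6, 1.23 for Lef1, 1.19 for Synpo2 and 1.01 for Rora. Prkcd had its largest gap, of 0.92, below WT-1063, DF-1018 and DF-1037, while Gbx2 and Calb2 set DF-1062 alone above the other mice, by 1.71 and 1.91. By the size of this gap Calb2, Tcf7l2 and Tnnt1 came before Gbx2 and Slc17a6. With each mouse left out in turn, 6 or 7 genes were split in the way of Tcf7l2 among the mice that remained.

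**Figure D2:**
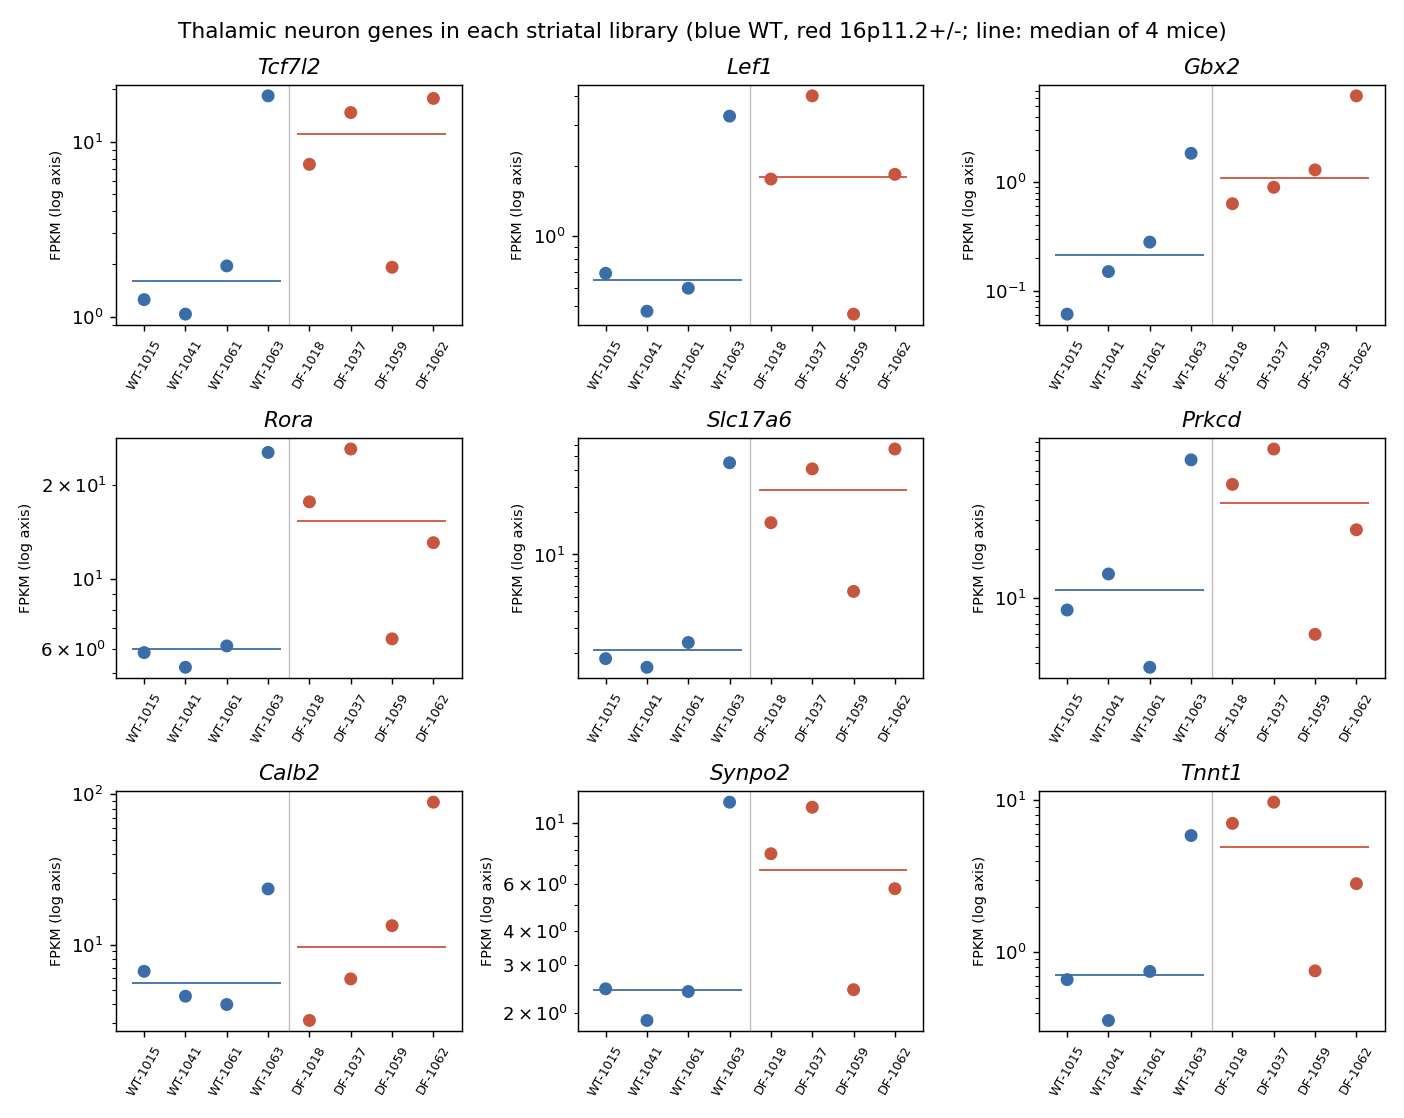
FPKM of the 9 genes in each mouse on log axes, each panel with its own scale. Blue points are WT mice, red points are 16p11.2+/- mice and each line is the median of 4 mice, which for Tcf7l2 was 1.61 in WT and 11.0 in 16p11.2+/- mice. WT-1063 lies with the highest 16p11.2+/- mice in most panels, and DF-1059 lies with the other 3 WT mice in all panels but those of Gbx2, Slc17a6 and Calb2.

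Tcf7l2 (ENSMUSG00000024985, chr19:55741820-55933654 on the plus strand of GRCm38) encodes a TCF/LEF factor that, with beta-catenin, carries Wnt signals to the genome and maintains the identity of thalamic neurons. Its FPKM was 1.26 in WT-1015, 1.04 in WT-1041, 1.96 in WT-1061 and 18.2 in WT-1063, and 7.42 in DF-1018, 14.6 in DF-1037, 1.92 in DF-1059 and 17.6 in DF-1062. WT-1063 was the highest of all 8 mice and DF-1059 lay within the range of the other 3 WT mice, so the genotypes overlapped. The log2 fold change, 16p11.2+/- minus WT, was 0.86 with a standard error (SE) of 0.99 over n = 4 mice per group. Without WT-1063 it was 2.83, and without both DF-1037 and DF-1062 it was -0.24.

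Lef1 (ENSMUSG00000027985, chr3:131110471-131224356, plus strand) is a second TCF/LEF gene of thalamic neurons. It was expressed at 0.692, 0.475, 0.597 and 3.29 FPKM in WT-1015, WT-1041, WT-1061 and WT-1063, and at 1.76, 4.02, 0.462 and 1.85 FPKM in DF-1018, DF-1037, DF-1059 and DF-1062. The highest and the lowest mouse were both 16p11.2+/-, which places the whole WT range inside that of the 16p11.2+/- mice. The log2 fold change was 0.66 (SE 0.75, n = 4 per group), 1.75 without WT-1063 and -0.16 without DF-1037 and DF-1062. Of the exon bases of Lef1, 13.7% are shared with Gm43352 on the opposite strand, and as the strand setting of the counting is not given in the sources used here, reads in this stretch are uncertain.

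Gbx2 (ENSMUSG00000034486, chr1:89927956-89931179, minus strand) is a homeobox gene that specifies thalamic neurons in the embryo. It had 0.0607 FPKM in WT-1015, 0.150 in WT-1041, 0.280 in WT-1061 and 1.85 in WT-1063, against 0.633 in DF-1018, 0.898 in DF-1037, 1.30 in DF-1059 and 6.25 in DF-1062. DF-1062 was more than 3-fold above every other mouse, and 3 of the 4 WT mice were below all 16p11.2+/- mice. Behind these values stand few counts. WT-1015 had 2 (exact Poisson 95% interval 0.242 to 7.22, counting error only), and DF-1062 had 225. Gbx2 had a log2 fold change of 1.89 (SE 1.02, n = 4 per group), 3.69 without WT-1063, 0.70 without DF-1062 and 0.72 without DF-1037 and DF-1062. The exons of Gbx2 share 43.5% of their bases with D130058E05Rik on the opposite strand, the largest overlap among the 9 genes, so its reads are uncertain for the same reason as those of Lef1.

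Rora (ENSMUSG00000032238, chr9:68653786-69388246, plus strand), a nuclear receptor that binds DNA as a monomer and is prominent in sensory thalamus, had the highest baseline. Its FPKM was 5.83 in WT-1015, 5.23 in WT-1041, 6.12 in WT-1061 and 6.45 in DF-1059, a narrow range. In WT-1063 it was 25.5, in DF-1018 17.7, in DF-1037 26.1 and in DF-1062 13.1. The 4 low values differed by far less than the step from them to the lowest of the 4 high values. On the log2 scale the genotype difference was 0.56 (SE 0.60, n = 4 per group), 1.45 without WT-1063 and 0.20 without DF-1037 and DF-1062.

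Because Tcf7l2 and Lef1 bind the letters TCAAAG and Rora binds AGGTCA, the 250 bases before the transcription start were read for these letters on both strands. RefSeq (GRCm38.p6) held 14 such windows for 8 of the 9 genes. Of these, 3 are shown, the window of the main Tcf7l2 start, and the 2 windows that hold TCAAAG, which is in capitals; sequences run 5′ to 3′ on the strand of the gene and end at the base before the start.
Tcf7l2, chr19:55741560-55741809, plus strand: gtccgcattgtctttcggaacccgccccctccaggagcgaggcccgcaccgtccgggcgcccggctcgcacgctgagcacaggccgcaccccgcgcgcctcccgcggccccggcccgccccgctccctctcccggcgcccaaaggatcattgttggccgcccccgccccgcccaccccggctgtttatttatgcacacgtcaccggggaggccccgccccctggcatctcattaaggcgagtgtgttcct
Lef1, start inside the gene, chr3:131156044-131156293, plus strand: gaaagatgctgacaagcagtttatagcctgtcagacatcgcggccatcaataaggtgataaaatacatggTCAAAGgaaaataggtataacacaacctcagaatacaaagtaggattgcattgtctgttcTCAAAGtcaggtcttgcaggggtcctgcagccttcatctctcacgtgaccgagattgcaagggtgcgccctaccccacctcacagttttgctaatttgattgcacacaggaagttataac
Prkcd, chr14:30626209-30626458, minus strand: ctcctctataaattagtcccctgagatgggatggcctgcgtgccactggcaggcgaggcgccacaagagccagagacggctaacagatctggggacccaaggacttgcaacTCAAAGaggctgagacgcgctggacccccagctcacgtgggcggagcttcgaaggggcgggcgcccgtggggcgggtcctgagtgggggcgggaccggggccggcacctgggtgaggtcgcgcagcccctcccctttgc
The window of Tcf7l2 lies upstream of the gene, holds no match and has a GC content of 72.8%, against a median of 52.4% over all windows. The Lef1 window lies within an intron of the longer Lef1 transcripts, has a GC content of 44.8%, and has its matches 180 and 120 bases before the start. That of Prkcd has a GC content of 67.6% and a match 139 bases before the start. TCAAAG or its complement CTTTGA was thus found in 2 of the 14 windows, against 13.8% of 32851 windows of all genes. AGGTCA or TGACCT was found in 0 of the 14, against 14.0% of all windows. AGGTCA and TCAAAG can overlap by their shared TCA, which did not occur in these windows, and a match describes letters only.

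Slc17a6 (ENSMUSG00000030500, chr7:51622006-51671119, plus strand), the vesicular glutamate transporter VGLUT2 of thalamic and other subcortical neurons, followed Tcf7l2 most closely among the 9 genes. Its FPKM was 1.82 in WT-1015, 1.58 in WT-1041, 2.37 in WT-1061, 44.7 in WT-1063, 16.8 in DF-1018, 40.5 in DF-1037, 5.47 in DF-1059 and 56.0 in DF-1062. DF-1059, low for Tcf7l2, was above the 3 low WT mice here. The ratio of Slc17a6 to Tcf7l2 stayed between 1.21 in WT-1061 and 3.18 in DF-1062, a 2.62-fold range for a gene whose own level changed 35.3-fold. The log2 fold change was 1.20 (SE 1.16, n = 4 per group), 3.90 without WT-1063 and -0.16 without DF-1037 and DF-1062.

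Prkcd (ENSMUSG00000021948, chr14:30595354-30626210, minus strand) encodes protein kinase C delta, a diacylglycerol-activated kinase abundant in thalamic relay nuclei. It reached 8.47 FPKM in WT-1015, 14.1 in WT-1041, 3.78 in WT-1061 and 70.4 in WT-1063, and 49.8 in DF-1018, 82.0 in DF-1037, 6.01 in DF-1059 and 26.3 in DF-1062. Unlike Tcf7l2 and Slc17a6, Prkcd was lower in DF-1062 than in the other 3 high mice. The 3 low WT mice also differed among themselves, as WT-1041 had more than 3 times the level of WT-1061. The genotypes differed by a log2 fold change of 0.76 (SE 0.96, n = 4 per group), 2.22 without WT-1063 and 0.24 without DF-1037 and DF-1062. The other 8 protein kinase C genes varied less, with a lowest mouse at 30.1% to 71.4% of the highest, against 4.60% for Prkcd.

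Calb2 (ENSMUSG00000003657, chr8:110137502-110168210, minus strand) encodes calretinin, a calcium-binding protein of midline thalamic neurons that is also made by interneurons and by neurons of other regions. As for Gbx2, its 3 highest mice were DF-1062, WT-1063 and DF-1059, in this order. FPKM was 6.64 in WT-1015, 4.53 in WT-1041, 3.99 in WT-1061, 23.5 in WT-1063, 3.12 in DF-1018, 5.91 in DF-1037, 13.4 in DF-1059 and 88.8 in DF-1062. DF-1018, high for Tcf7l2, was the lowest mouse, and DF-1062 was almost 4 times the next. For Calb2 the log2 fold change was 1.46 (SE 1.02, n = 4 per group), and it was -0.35 without DF-1062, -0.23 without DF-1037 and DF-1062, and 2.39 without WT-1063. No promoter window of Calb2 was analysed here.

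Synpo2 (ENSMUSG00000050315, chr3:123076519-123236149, minus strand) encodes synaptopodin 2, an actin-binding protein best known from muscle. Its FPKM was 2.46, 1.88, 2.41 and 11.9 in WT-1015, WT-1041, WT-1061 and WT-1063, and 7.72, 11.4, 2.44 and 5.74 in DF-1018, DF-1037, DF-1059 and DF-1062. As for Rora, the 3 low WT mice and DF-1059 lay close together, and DF-1062 was the lowest of the 4 high mice. Synpo2 had a log2 fold change of 0.54 (SE 0.66, n = 4 per group), 1.58 without WT-1063 and 0.14 without DF-1037 and DF-1062.

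Tnnt1 (ENSMUSG00000064179, chr7:4504570-4516382, minus strand) encodes slow skeletal muscle troponin T, whose transcript is also found in thalamic neurons. Its FPKM was 0.660 in WT-1015, 0.355 in WT-1041, 0.748 in WT-1061 and 5.87 in WT-1063, and 7.06 in DF-1018, 9.73 in DF-1037, 0.753 in DF-1059 and 2.83 in DF-1062. DF-1018 was above WT-1063 for this gene, which held for none of the other 8. Tnnt1 had a log2 fold change of 1.41 (SE 0.97, n = 4 per group), 3.09 without WT-1063 and 1.05 without DF-1037 and DF-1062. Of the 9 genes, Tnnt1 had the largest log2 fold change in the fit without those 2 mice.

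The genes did not vary in 1 fixed proportion. Over the 36 pairs of genes, the SD over mice of the log2 ratio of their levels had a median of 1.12. It was 0.13 for Rora and Synpo2, 0.27 for Lef1 and Synpo2, 0.35 for Lef1 and Rora and 0.52 for Tcf7l2 and Slc17a6. It was largest for Calb2 with Tnnt1, at 2.18, and for Calb2 with Prkcd, at 2.11. Per unit of Tcf7l2, the FPKM of Rora went from 5.04 in WT-1041 down to 0.743 in DF-1062, a 6.77-fold range. That of Lef1 had a 5.26-fold, Tnnt1 a 5.93-fold, Synpo2 a 6.01-fold, Prkcd a 9.10-fold, Gbx2 a 14.0-fold and Calb2 a 17.3-fold range. For Rora and Synpo2 this ratio was higher in each of WT-1015, WT-1041, WT-1061 and DF-1059, the mice with little Tcf7l2, than in each of the other 4. For Lef1 the same 4 mice had ratios of 0.240 to 0.551, which overlapped the 0.105 to 0.274 of the others. As Tcf7l2 is the divisor, a gene with a narrower range than Tcf7l2 tends to have higher ratios in mice with little Tcf7l2. Such ratios are thus no observation apart from the ranges of the genes.

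**Figure D3:**
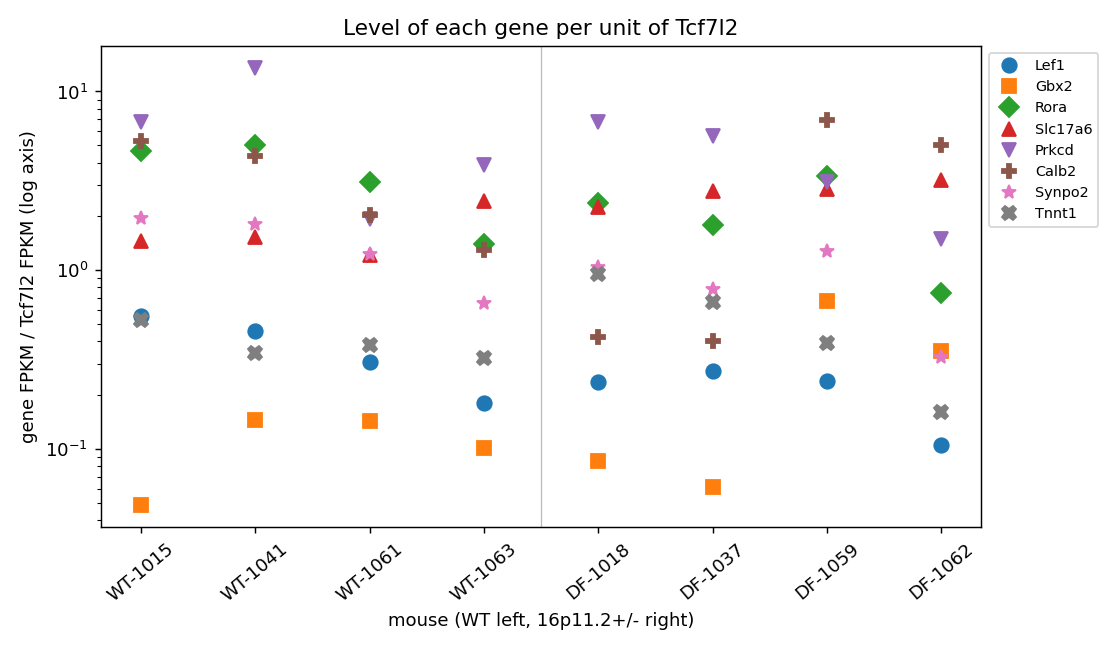
FPKM of 8 genes divided by the FPKM of Tcf7l2 in each mouse, on a log axis, with WT mice left and 16p11.2+/- mice right of the line. Slc17a6 (red triangles) stays within 1.21 to 3.18, while Rora (green diamonds) goes from 5.04 in WT-1041 to 0.743 in DF-1062.

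Between the genotypes, 9 of the 9 log2 fold changes were positive, with a median of 0.86, against 48.2% positive and a median of -0.0092 over all tested genes. The log2 fold change was larger than its SE for Gbx2, Calb2, Tnnt1 and Slc17a6 and smaller than its SE for the other 5. In the edgeR fit across all genes, 0.109% of the 18294 genes had an adjusted p under 0.05 (20 genes, of which 3 were higher and 17 lower in 16p11.2+/- mice), and 790 genes had an unadjusted p under 0.05. None of the 9 genes was among the 20. For 0 of the 9 genes did every mouse of a genotype lie above every mouse of the other, a property of 2.83% of all tested genes. Without WT-1063 this count was 4 (Gbx2, Rora, Slc17a6 and Tnnt1), beside 10.2% of all tested genes. The median log2 fold change of the 9 genes was then 2.39, whereas without DF-1037 and DF-1062 it was 0.14, and 4 of the 9 log2 fold changes (Tcf7l2, Lef1, Slc17a6 and Calb2) were negative. WT-1063 was the highest WT mouse for each of the 9 genes. DF-1037 and DF-1062 had the largest summed FPKM of these genes among 16p11.2+/- mice. The median was thus higher without the highest WT mouse and lower without these 16p11.2+/- mice. Why these libraries had such levels was not tested. The median was also lower without a single other mouse, at 0.54 without WT-1015, 0.57 without WT-1041 and 0.58 without WT-1061. It was 0.64 without DF-1037 alone and 0.70 without DF-1062 alone, but 0.99 without DF-1018 and 1.21 without DF-1059.

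**Figure D4:**
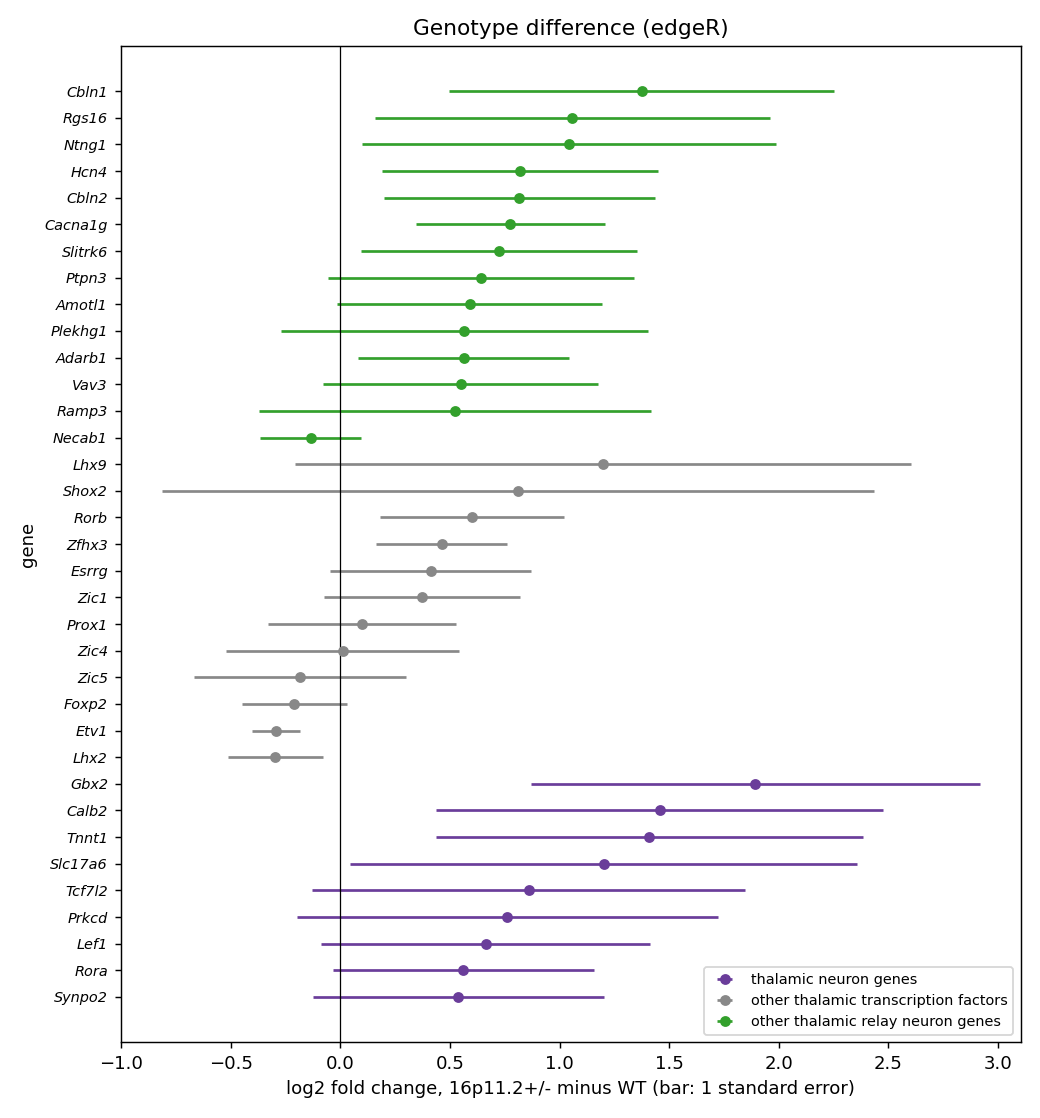
Log2 fold change, 16p11.2+/- minus WT, of the 9 genes (purple), 12 other thalamic transcription factors (grey) and 14 other thalamic relay neuron genes (green), from edgeR, with bars of 1 standard error (n = 4 mice per group). All 9 genes lie right of 0, from 0.54 for Synpo2 to 1.89 for Gbx2, and no gene shown had an adjusted p under 0.05.

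Other thalamic genes that are not among the 9 were examined in the same fit. All 26 were tested. Of these, 0 passed the threshold (smallest adjusted p 0.859, edgeR), 1 had an unadjusted p under 0.05 and 21 had a positive log2 fold change, with a median of 0.56. Without WT-1063 the median was 1.19 and 19 of the 26 had an unadjusted p under 0.05 (edgeR), beside 1530 of all 18641 genes in that fit. Without DF-1037 and DF-1062 the median was -0.055 and 0 of the 26 did, beside 770 of all 19092 genes. Of the 26, 0 passed the threshold in either fit. These genes were listed with the values of the mice known, so the count of 19 is a description and no test. The single gene of the main fit was Etv1, a transcription factor that is not specific to thalamus, at a log2 fold change of -0.29 (SE 0.11). Among 14 relay neuron genes 13 were positive, with a median of 0.68. Among 12 transcription factors 8 were positive, with a median of 0.24. The largest gap split the mice as in Tcf7l2 for 8 of the 14 relay neuron genes but for only 2 of the 12 transcription factors, Shox2 and Rorb.

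Shox2, a homeobox gene of thalamic neurons, separated the mice more sharply than any of the 9. Its FPKM was 0.0200 in WT-1015, listed at 0 in WT-1041, 0.166 in WT-1061 and 0.650 in DF-1059, against 26.3 in WT-1063, 8.86 in DF-1018, 21.9 in DF-1037 and 15.6 in DF-1062. Zic1, a zinc finger gene expressed in the septum and in parts of the thalamus, was measured in every library, from 8.26 in WT-1061 to 51.3 in DF-1062. Esrrg, an orphan nuclear receptor, ran from 3.69 in WT-1041 to 16.5 in DF-1037.

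Of the relay neuron genes, Ramp3, a receptor-modifying membrane protein, had an FPKM of 36.1 in WT-1063, 34.8 in DF-1037, 17.7 in DF-1062 and 16.1 in DF-1018, and of 2.72 to 6.05 in the other 4 mice. Adarb1, which edits adenosine in RNA, had a baseline like that of Rora, with 14.3 to 19.3 in WT-1015, WT-1041, WT-1061 and DF-1059 and 32.5 to 55.7 in the other 4. Necab1, a calcium-binding protein, went another way, as DF-1037 had the lowest level, 14.2, and DF-1062 the highest, 36.3.

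The partners and targets of the TCF/LEF factors were examined as a list. Of 19 genes of the Wnt and TCF/LEF pathway 18 were tested, 0 passed the threshold, 6 had a positive and 12 a negative log2 fold change, and the median was -0.055. The largest gap split the mice as in Tcf7l2 for 0 of them, beside 0.858% of all tested genes. Ctnnb1, the gene of beta-catenin, was highest in the same 4 mice as Tcf7l2, but over a narrow range, with 86.5 FPKM in DF-1062, 82.9 in WT-1063, 79.9 in DF-1037 and 67.9 in DF-1018, against 58.6 to 65.0 in the other 4. The kinase gene Gsk3b stayed between 32.0 in DF-1037 and 45.4 in DF-1018. Tle4, a co-repressor bound by TCF/LEF factors, had 27.7 FPKM in WT-1015 and 11.21 in DF-1037. Tcf7, the third TCF/LEF gene measured here, had its highest level of 6.00 in DF-1018 and its lowest of 1.91 in DF-1062, and Tcf7l1 stayed between 0.418 in DF-1018 and 1.06 in WT-1061.

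Close relatives of the 9 genes were also mostly unlike them. Of 21 paralogues 19 were tested, 0 passed the threshold, 5 had a positive and 14 a negative log2 fold change (median -0.19), and only Rorb was split as Tcf7l2. Rorb had 2.74 FPKM in WT-1041 and 11.18 in DF-1037. Slc17a7, the glutamate transporter VGLUT1 of cortical neurons, had 53.8 FPKM in WT-1015, 67.9 in WT-1041, 29.0 in WT-1061, 20.2 in WT-1063, 10.4 in DF-1018, 106 in DF-1037, 25.3 in DF-1059 and 7.83 in DF-1062. DF-1037 was thus high for both transporters, while DF-1062 was the highest mouse for Slc17a6 and the lowest for Slc17a7. Slc17a8, the third vesicular glutamate transporter, was lowest in DF-1037, at 1.13. Gbx1 ran from 0.319 in DF-1037 to 3.24 in DF-1062. Pvalb, the gene of the calcium-binding protein parvalbumin, had 75.9 FPKM in WT-1063 and 103 in DF-1037 but 25.9 in DF-1062, and Calb1, another calcium-binding protein, had a lowest mouse at 34.6% of the highest. Synpo, the relative of Synpo2, was lowest in DF-1062, at 4.93, against 8.61 to 16.0 in the other 7 mice.

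The summed level of the 9 genes was set beside lists of markers of other tissues. Their summed FPKM was 27.9 in WT-1015, 29.3 in WT-1041, 22.2 in WT-1061, 205 in WT-1063, 112 in DF-1018, 195 in DF-1037, 38.2 in DF-1059 and 218 in DF-1062. The 14 other relay neuron genes gave 80.8, 87.6, 73.2 and 277 in the WT mice, and 170.1, 286, 88.0 and 231 in the 16p11.2+/- mice, in the same order. The mice with much of the 9 genes did not share a single profile of other markers. DF-1018 combined a summed FPKM of the 9 genes of 112 with a summed medium spiny neuron FPKM of 1443. The latter was within the range of the mice with low levels of the 9 genes. In DF-1037 and DF-1062 the medium spiny neuron sums were 353 and 282, below all others, and in WT-1063 the sum was 919. None of the 9 medium spiny neuron genes passed the threshold, and all 9 were negative on the log2 scale (median -0.53), whereas without DF-1037 and DF-1062 all 9 were positive (median 0.19). These mice were picked for that fit by their low medium spiny neuron genes, so a rise without them follows from the choice.

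Habenula genes, which mark a small nucleus above the thalamus, stood out in DF-1062. Of 7 such genes 6 were tested and 0 called, 6 had a positive log2 fold change, 1 had an unadjusted p under 0.05, and their summed FPKM was 29.2 in DF-1062 against 4.07 to 7.51 in the other 7 mice. The median log2 fold change of these genes was 1.13, and 0.17 without DF-1062. In that library Tac2 had 11.7 FPKM and Gpr151 6.34, and Nwd2 had 4.27. Of 8 hypothalamic genes 3 were tested and 0 called, and 5 were listed at 0 in at least 1 mouse. Their median log2 fold change was 1.67, and 0.14 without DF-1062. Oxt had 108 FPKM, Avp 59.5 and Trh 20.7 in DF-1062, whereas in the other 7 mice Oxt did not exceed 1.60, Avp 2.37 and Trh 3.53. Calb2 and Gbx2 were the 2 of the 9 genes that set DF-1062 alone above the rest. The part of habenular and hypothalamic RNA in their values was not tested.

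Choroid plexus genes were high in WT-1063 and, to a lesser degree, in WT-1015. Their summed FPKM was 616 in WT-1015, 58.8 in WT-1041, 78.9 in WT-1061, 5204 in WT-1063, 74.6 in DF-1018, 205 in DF-1037, 59.4 in DF-1059 and 62.5 in DF-1062. Ttr, the most abundant of them, had 4273 FPKM in WT-1063 and 453 in WT-1015, Enpp2 had 731 and 132, and Clic6 43.2 and 11.7. WT-1015, second for these genes, was among the 4 lowest mice for 8 of the 9 thalamic neuron genes. Of 10 choroid plexus genes 8 were tested, 0 were called, 5 had an unadjusted p under 0.05 and 8 were negative on the log2 scale (median -2.74). Without WT-1063 the median was -0.64 and 0 had an unadjusted p under 0.05. Cortical glutamatergic neuron genes had a summed FPKM of 168 in DF-1037, 127 in WT-1041 and 104 in WT-1015, and of 16.0 in DF-1018, 17.9 in DF-1062 and 28.0 in WT-1063, with 0 of 8 called and a median log2 fold change of -0.55 (-1.64 without DF-1037, -0.18 without DF-1062). Neurod6, a transcription factor of cortical neurons, had 18.2 FPKM in DF-1037 and 0.115 in WT-1063, and Tbr1 12.5 and 0.474. The part that each of these tissues had in the levels of the 9 genes was not tested.

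**Figure D5:**
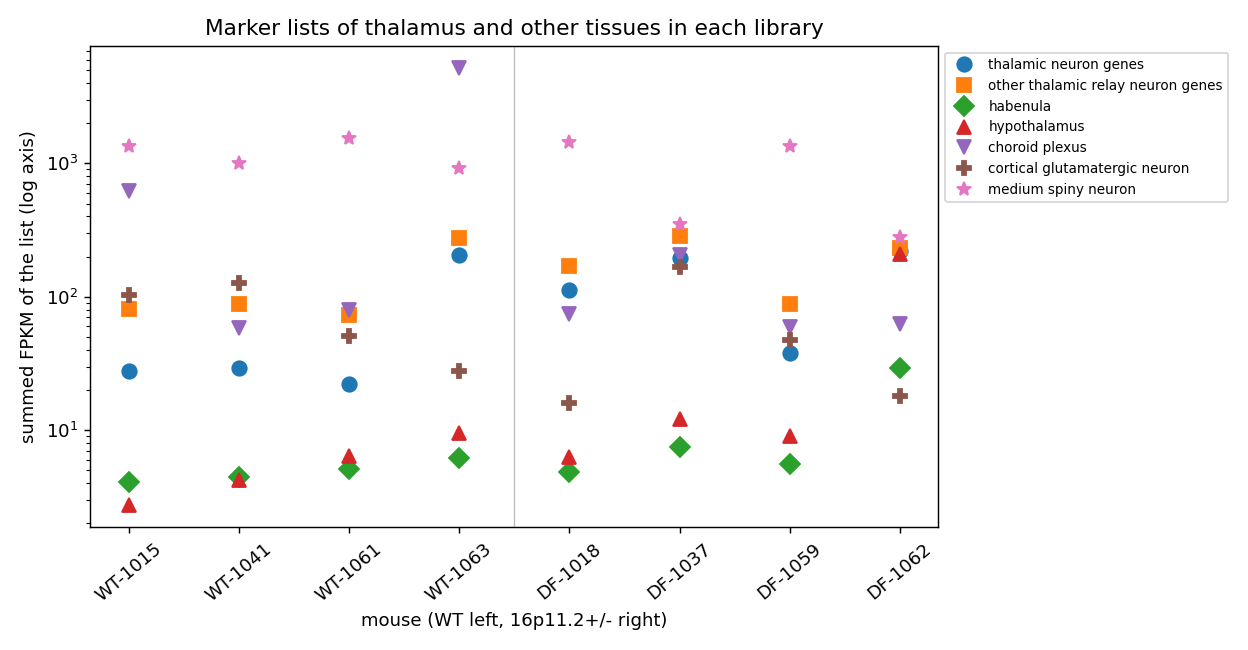
Summed FPKM of each marker list in each mouse, on a log axis, with WT mice left and 16p11.2+/- mice right of the line; marks are single libraries. The thalamic neuron genes (blue circles) are at 205, 112, 195 and 218 in WT-1063, DF-1018, DF-1037 and DF-1062 and between 22.2 and 38.2 in the other 4, choroid plexus genes peak in WT-1063, and hypothalamus and habenula genes peak in DF-1062.

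The genes whose pattern over the 8 mice was most like that of Tcf7l2 were found by the SD over mice of the difference of their log2 CPM (counts scaled to library size, prior count of 2) from that of Tcf7l2, which is small where 2 genes keep a steady ratio. The median SD over 18293 other tested genes was 1.77, near the SD of Tcf7l2 itself, 1.76. Slc17a6 took place 6 of all these genes with an SD of 0.52, Lef1 place 32 with 0.75, Tnnt1 place 33 with 0.76, Synpo2 place 51 with 0.84, Rora place 72 with 0.93, Prkcd place 117 with 1.04 and Gbx2 place 175 with 1.15. Calb2 came at place 2983 with 1.64. The first places were held by Ntng1, a netrin-related adhesion molecule of thalamic axons (0.38), Gckr (0.42), Rgs16, a regulator of G protein signalling (0.43), Nr2f2, a nuclear receptor also called COUP-TFII (0.45), and Vipr2, a receptor of vasoactive intestinal peptide (0.51). Ntng1 and Rgs16 belong to the list of relay neuron genes and were named after their values were seen.

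Outside the lists, Gckr, Nr2f2, Vipr2, Patj, Mctp2, Ahnak2, Trpm6 and Rgs9bp were the 8 genes most like Tcf7l2. Nr2f2 had 1.01 FPKM in WT-1015, 0.704 in WT-1041, 1.281 in WT-1061, 7.27 in WT-1063, 3.56 in DF-1018, 8.94 in DF-1037, 1.86 in DF-1059 and 7.42 in DF-1062. Patj, a cell polarity gene, had 7.35 in WT-1063, 4.70 in DF-1018, 8.56 in DF-1037 and 4.42 in DF-1062, and 0.637 to 1.38 in the other 4. Gckr, Ahnak2 and Rgs9bp stayed below 1 FPKM in all 8 mice, so counting error is a larger part of their values. Shox2, with a sharper split than Tcf7l2, came late in this order, with an SD of 2.27, since its range was wider than that of Tcf7l2.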

How the data were processed

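Striatal RNA of 8 mice was sequenced, 1 library per mouse. After filtering, the authors aligned the reads with Hisat2 2.1.0, and the raw counts per gene from Htseq-count were deposited. For each gene and mouse the deposited FPKM equals the count over the gene's fixed length and the mouse's summed counts. Deposited comparison columns (authors' DESeq2 1.28.1 fold changes and p-values) and a table of FPKM bins were not used. The submitters' processing notes name Bowtie 0.12.2 and the builds mm8 and mm9, with no role, and the study's methods name no build. Gene lengths implied by FPKM fit GENCODE M21 (GRCm38), which supplied positions. The strand setting is not given in the sources used here.

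Counts were fitted with edgeR 4.0.16 in R 4.3.3 on all 8 mice (TMM, filterByExpr at 10 counts and a total of 15, quasi-likelihood test without covariates). Benjamini-Hochberg adjusted p-values over 18294 genes were called under 0.05. Standard errors were derived from the F statistic. The code was tested on simulated data. No value was imputed and no mouse was dropped from the main fit.

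The genes, the lists of markers and the tests were chosen with earlier results of these data known. Named were the 9 genes, in each list the 3 genes with the highest mean FPKM, every gene past the threshold and every paralogue with a mean FPKM of at least 1, and outside the lists the 8 genes most like Tcf7l2. Ntng1, Rgs16, Etv1, Taok2, Tcf7l1, Tyr and a were named outside this rule, after their values were seen.

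The alternatives were RLE factors, library totals alone, no filter, at least 10 counts in every mouse, DESeq2 1.42.0, limma-trend (limma 3.58.1) on log2(FPKM + 1) and log2(FPKM + 0.1), TMM-scaled CPM, and each mouse left out. The fit without DF-1037 and DF-1062, and the marker lists without single libraries, were added after seeing the data.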

Additional observations from a re-analysis of the deposited data

Results flagged for a closer look

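In a group of 4 mice, the gap between the highest or lowest mouse and its nearest neighbour, divided by the range of the group (gap share), was set beside Dixon's 95% critical value for 4 samples. The groups were the WT and the 16p11.2+/- mice, for each gene named by the rule above and for each summed list. Genes outside that rule were not examined in this way. Of 132 groups examined, 41 were past it. Chance takes about 1 in 20 groups past it, but most genes examined were listed or chosen with the values of these mice known, so the count is a description and no test. In 27 of the 41 groups WT-1063 was the highest WT mouse, and in 9 DF-1062 was the highest 16p11.2+/- mouse.

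The 9 thalamic neuron genes, chosen on these values, had WT-1063 apart in WT mice, which restates their choice. The gap share was 0.982 for Slc17a6, 0.956 for Rora, 0.947 for Tcf7l2, 0.943 for Synpo2, 0.929 for Tnnt1, 0.923 for Lef1, 0.877 for Gbx2, 0.864 for Calb2 and 0.845 for Prkcd, and 0.961 for their summed FPKM. In 16p11.2+/- mice DF-1062 stood apart for Gbx2 (gap share 0.881) and Calb2 (0.880), and for no other of the 9. Of the other thalamic genes named by the rule, those with WT-1063 apart were Shox2 with a gap share of 0.994, Adarb1 with 0.968, Ramp3 with 0.909 and Rorb with 0.869. The summed relay neuron genes gave 0.929. The rest of the other thalamic genes were not examined, so this list is not complete. Plekhg1, for example, had 28.8 FPKM in WT-1063 against 3.15 to 3.38 in the other WT mice. The same mouse stood apart for genes picked for their likeness to Tcf7l2, as their choice implies, with gap shares of 0.970 for Gckr, 0.958 for Patj, 0.949 for Ahnak2, 0.943 for Trpm6, 0.937 for Rgs9bp, 0.916 for Vipr2, 0.912 for Nr2f2 and 0.903 for Mctp2, and for Pvalb with 0.851.

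Among choroid plexus genes WT-1063 stood apart with a gap share of 0.894 for Ttr, 0.880 for Enpp2 and 0.892 for the summed list. In 16p11.2+/- mice DF-1037 had the highest Ttr (0.871) and the highest summed list (0.896). Of hypothalamic and habenular genes, DF-1062 stood apart with a gap share of 0.986 for Oxt, 0.967 for Avp, 0.937 for Trh, 0.927 for Gpr151 and 0.877 for Tac2, and the summed lists gave 0.971 for hypothalamus and 0.890 for habenula. Among paralogues DF-1062 was the lowest 16p11.2+/- mouse for Synpo (0.920) and Prkcz (0.842), and DF-1018 was the highest for Prkch (0.943).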

How the results depend on the processing

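No paired analysis was made, because the sample labels used here name no pairing of WT with 16p11.2+/- mice. The median log2 fold change of the 9 thalamic neuron genes was 0.86, and 0.81 to 1.08 under the other normalizations, filters, tools and scales. With each mouse left out it ran from 0.54 to 2.39, the highest value being that without WT-1063, and without DF-1037 and DF-1062 together it was 0.14. Leaving out a mouse gave 0 to 4 of the 9 genes with no overlap between genotypes. The 4 genes appeared without WT-1063. The number of all genes past the threshold was 20, 31 with DESeq2, 8 to 18 with each mouse left out and 11 without DF-1037 and DF-1062. It was 8 without DF-1018, 8 without DF-1059, 10 without WT-1015, 10 without WT-1061, 11 without WT-1041 and 12 without DF-1062. Among the other thalamic genes 0 passed in every fit run. Without WT-1063 the log2 fold change was 2.83 for Tcf7l2, 3.69 for Gbx2, 3.90 for Slc17a6 and 3.09 for Tnnt1. For Calb2 it was -0.35 without DF-1062 and -0.23 without DF-1037 and DF-1062. In that last fit it was also negative for Tcf7l2 (-0.24), Lef1 (-0.16) and Slc17a6 (-0.16). The causes of these changes were not tested. Gbx2, with 2 counts in WT-1015, was not part of the fit that asked for 10 counts in every mouse, and depth limits its low values most.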
